A study of Sus scrofa with 6 samples.

Results

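The miR-30 family is a set of microRNAs (miRNAs) that come from 6 hairpins, named mir-30a, mir-30b, mir-30c-1, mir-30c-2, mir-30d and mir-30e. Its members were every row of the deposited miRNA table whose first name starts with ssc-miR-30 and a letter from a to e, whichever arm of the hairpin the row holds. This gave 11 of 1143 rows, 5 from the 5p arm and 6 from the 3p arm, because the identical 5p sequences of mir-30c-1 and mir-30c-2 share 1 row, called miR-30c-5p here. Small RNA was sequenced from longissimus dorsi muscle of Meishan (MS) and Large White (LW) pigs, with 3 libraries in each breed. The paper describes the animals as female fetuses at 35 dpc (days post conception) from different sows, whereas the labels describe unrelated adult females of 2 years. Neither breed received a treatment, and both sources agree that each library is a separate female. The labels class MS as obese and LW as lean. Breed is the only factor that differs between the groups by design, and any difference in stage or tissue make-up between the breeds cannot be told apart from it. RNA came from whole muscle, so that fewer cells of a type and less RNA per cell cannot be told apart either.

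A miRNA hairpin is cut into a short duplex, and 1 strand, the guide, is loaded into an Argonaute protein while its partner, the passenger, is mostly degraded. Bases 2 to 8 of the loaded strand, the seed, pair with target mRNAs and lower their output, so that miRNAs with the same seed can bind the same sites. In the miR-30 family the guide is mainly the 5p arm. It is known for acting on connective tissue growth factor in rodent heart cells together with miR-133, and miR-30a is known for acting on the autophagy gene BECN1 in human cells.

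The sequences show which rows can share targets and how few bases separate the rows. The seed is in capitals, and the 5p rows are given first.
miR-30a-5p: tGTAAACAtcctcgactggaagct
miR-30e-5p: tGTAAACAtccttgactggaagct
miR-30d-5p: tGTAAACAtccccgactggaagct
miR-30c-5p: tGTAAACAtcctacactctcagct
miR-30b-5p: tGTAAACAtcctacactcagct
miR-30a-3p: cTTTCAGTcggatgtttgcagc
miR-30e-3p: cTTTCAGTcggatgtttacagc
miR-30d-3p: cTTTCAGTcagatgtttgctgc
miR-30c-2-3p: cTGGGAGAaggctgtttactct
miR-30c-1-3p: cTGGGAGAgggttgtttactcc
miR-30b-3p: cTGGGAGGtggatgtttacttc

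All 5 guide rows began with the same 11 bases and carried the seed GTAAACA. The differences lay behind the seed. Counted from 1 at the 5′ end, miR-30e-5p differed from miR-30a-5p by C13T alone, and miR-30d-5p differed from miR-30a-5p by T12C alone. The miR-30b-5p and miR-30c-5p sequences shared their first 18 and their last 4 bases and differed by 2 bases in length. No source used here says how reads that match more than 1 such row were assigned, so the split between the rows that differ by 1 base is uncertain to that extent. The 3p rows fell into 3 seeds. The rows of mir-30a, mir-30d and mir-30e carried TTTCAGT, those of mir-30c-1 and mir-30c-2 carried TGGGAGA, and miR-30b-3p had TGGGAGG to itself, by A8G from miR-30c-2-3p.

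The hairpins lie in 3 pairs on the pig genome (Sscrofa10.2, from the authors' hairpin tables). Distances are those between the listed intervals, which apart from that of mir-30a are longer than the listed hairpin sequences. The mir-30a hairpin (chr1:57750736-57750842, minus strand) and mir-30c-2 (chr1:57721666-57721775, minus strand) were separated by 28960 bases. The mir-30d hairpin (chr4:6713514-6713596, plus strand) and mir-30b (chr4:6717636-6717724, plus strand) were separated by 4039 bases. The mir-30e hairpin (chr6:157476641-157476742, minus strand) and mir-30c-1 (chr6:157473588-157473684, minus strand) were separated by 2956 bases. In the RefSeq annotation of Sscrofa11.1, mir-30e and mir-30c-1 lay inside NFYC, which encodes a subunit of the CCAAT-binding factor NF-Y, and mir-30a and mir-30c-2 lay inside the protein-coding gene LOC102157778. No gene enclosed mir-30b or mir-30d.

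The values are the authors' normalized reads, scaled within each library by its total mappable reads. They count the reads of the commonest sequence of each miRNA, so reads of its other forms are left out. Summed over all rows they gave 1757879 to 2362082 in MS libraries and 2541224 to 2914028 in LW libraries. Most low values were whole multiples of 1 step per library (93.3% to 95.7% of values up to 20 reads, within 0.1 read). That step gave back 1038988 to 3282601 reads in MS and 2028427 to 3419280 reads in LW. Of the 66 values of the family, 23 did not come back as whole reads within 0.1 read. The lowest value rested on 14 reads and the lowest 5p value on 3131, so the 5p rows are more finely resolved than the 3p rows. The muscle-enriched miRNAs that mark the labelled tissue, such as miR-133a-3p, were present in every library and summed to 66521 to 97489 normalized reads in MS and 20108 to 25065 in LW.

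Breeds were compared row by row with limma on log2(normalized reads + 1), over the 548 rows whose mean reached 10 normalized reads in MS or in LW, and a row was called at a Benjamini-Hochberg adjusted p under 0.05. A log2 fold change is on that scale, so that it understates the change of low rows, and a positive one means higher in MS. All 11 rows of the family passed the filter. Of them 4 were called, 3 higher and 1 lower in MS, whereas 62.2% of all tested rows were called, 34.1% higher and 28.1% lower. The breeds did not overlap in 5 of the 11 rows, against 67.7% of all tested rows. The median log2 fold change was 0.01 over the family and 0.11 over all tested rows.

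**Figure D1:**
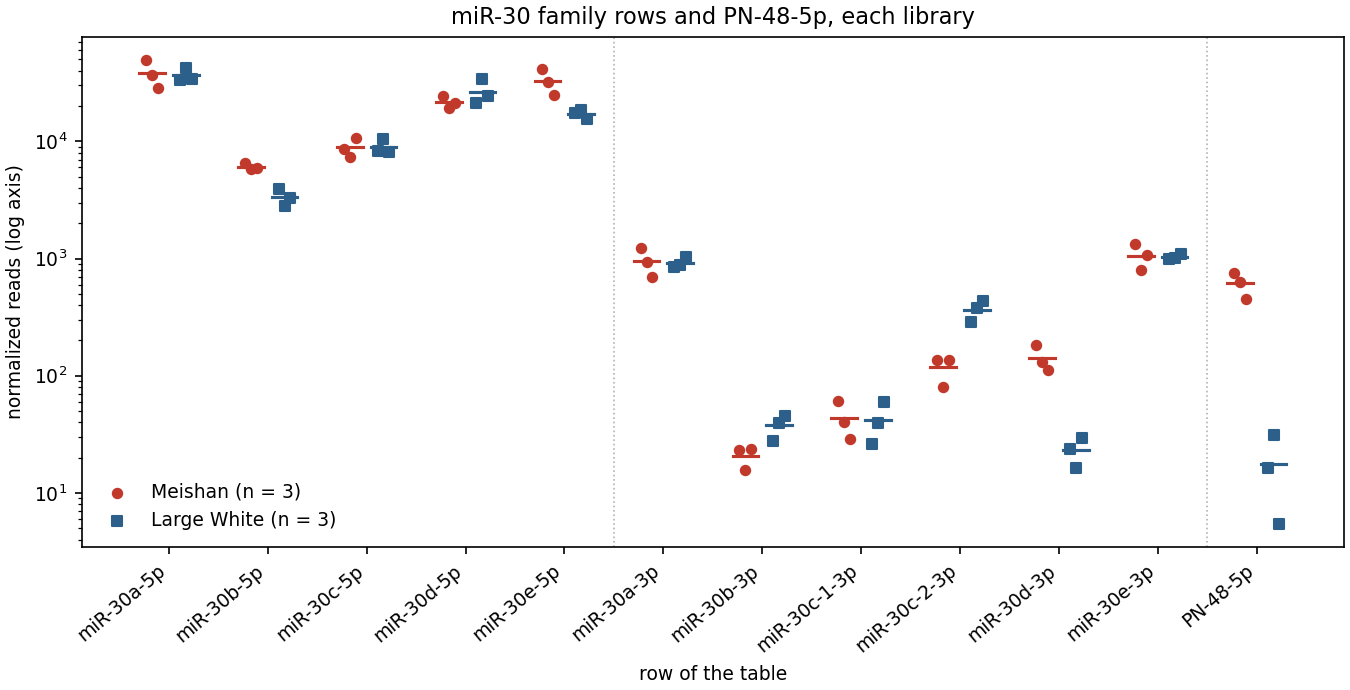
Normalized reads (log axis) of the 11 miR-30 rows and of PN-48-5p, another row with the same seed, in each library; points are libraries and bars are arithmetic means, n = 3 per breed. The breeds are fully separated for miR-30b-5p, miR-30e-5p, miR-30b-3p, miR-30c-2-3p, miR-30d-3p and PN-48-5p.

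Of the 5 guide rows, miR-30e-5p and miR-30b-5p were higher in MS, and miR-30a-5p, miR-30c-5p and miR-30d-5p were not called. The called rows sit on different hairpin pairs. The most abundant row of the family, ssc-miR-30a-5p, had 49559, 37062 and 28436 normalized reads in MS libraries 1, 2 and 3, against 33647, 42650 and 33936 in LW libraries 1, 2 and 3. Its breeds overlapped, with the highest and the lowest value of the row both in MS. The means were 38352 ± 10620 in MS and 36744 ± 5117 in LW (SD, n = 3 each), and the log2 fold change was 0.03 (SE 0.25, limma adjusted p = 0.911). By its mean it ranked 12 among all rows in MS and 20 in LW.

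The next guide, ssc-miR-30e-5p, comes from a hairpin that lies within NFYC. It had 41106, 32224 and 25060 normalized reads in MS, against 17302, 18483 and 15378 in LW. Every MS library was above every LW library, and MS spread more widely. The means were 32797 ± 8038 in MS and 17054 ± 1567 in LW (SD, n = 3 each), a ratio of 1.92 and a log2 fold change of 0.92 (SE 0.24, limma adjusted p = 0.00547). The row ranked 16 in MS and 37 in LW.

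The fifth row by abundance in MS, ssc-miR-30b-5p, comes from the mir-30d locus. It had 6552, 5850.0 and 5890.1 normalized reads in MS, against 3923, 2799.8 and 3317 in LW. The MS libraries lay close together and all above LW. The means were 6098 ± 395 in MS and 3346 ± 562 in LW (SD, n = 3 each), a ratio of 1.82, with a log2 fold change of 0.88 (SE 0.24, limma adjusted p = 0.00743).

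Both calls ended under a correction for GC content. When each library's deviation from the row's mean was corrected by a loess curve on the GC content of the listed sequence, the log2 fold change was 0.12 for miR-30e-5p (limma adjusted p = 0.66) and -0.07 for miR-30b-5p (limma adjusted p = 0.79), and neither row was called. Both sequences were among the lower in GC in the family, with 41.7% for miR-30e-5p and 40.9% for miR-30b-5p, whereas miR-30a-5p had 45.8% and miR-30d-5p had the highest GC content of the guides. The miR-30c-5p sequence also had 41.7%, the same as miR-30e-5p, and its log2 fold change without the correction was -0.02. With the correction miR-30c-5p was lower in MS, with a log2 fold change of -0.82 (limma adjusted p = 0.0104). Whether the relation to GC content is technical was not tested. The other alternatives, each library left out in turn included, kept the calls of miR-30e-5p and miR-30b-5p, which made 18 of 20 for each.

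The remaining guides did not differ beyond the spread between libraries. The mir-30d guide, miR-30d-5p, had 24606, 19327 and 21268 normalized reads in MS, against 21331, 33891 and 24372 in LW. The breeds overlapped, and LW library 2 was the highest. Its log2 fold change was -0.27 (SE 0.24, limma adjusted p = 0.34).

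The row of the identical mir-30c guides, miR-30c-5p, had 8682, 7347 and 10706 normalized reads in MS, against 8208, 10570.1 and 8164 in LW. The breeds overlapped here too, and the log2 fold change was -0.02 (SE 0.25, limma adjusted p = 0.953). The directions of miR-30a-5p, miR-30c-5p and miR-30d-5p turned with the scaling or the GC correction, so no direction is given for them. If every library is instead brought to the same sum, the log2 difference of a row shifts up by 0.44, apart from the pseudocount. Under this scaling miR-30a-5p was called at a log2 fold change of 0.47 (limma adjusted p = 0.0422), against 0.03 with the deposited scaling.

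The order of the guides by mean was miR-30a-5p, miR-30e-5p, miR-30d-5p, miR-30c-5p and miR-30b-5p in MS. In LW, miR-30d-5p came ahead of miR-30e-5p. The ranges of neighbours in these orders did not overlap, except those of miR-30a-5p and miR-30e-5p in MS and of miR-30a-5p and miR-30d-5p in LW. These are orders of reads, since different sequences can enter a library with different efficiency.

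**Figure D2:**
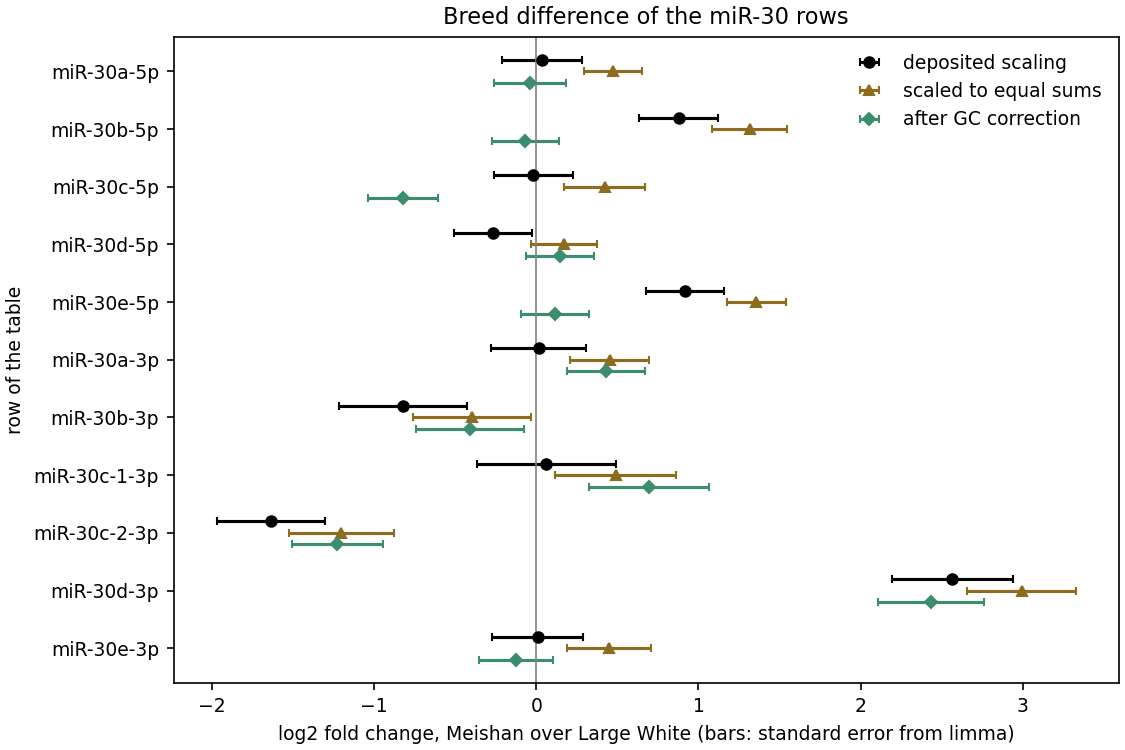
Log2 fold change of each miR-30 row, MS over LW, with the deposited scaling, after scaling to equal sums and after the GC correction; bars are limma standard errors. The rows miR-30d-3p and miR-30c-2-3p stay clear of 0 on the same side in all of them, while miR-30e-5p and miR-30b-5p move to about 0 after the GC correction.

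Of the 6 passenger rows, miR-30d-3p was higher and miR-30c-2-3p lower in MS, and the other 4 were not called. The largest difference of the family was in miR-30d-3p, the partner of a guide that was not called. It had 183, 129.9 and 111 normalized reads in MS, against 23.8, 16.3 and 29.2 in LW. The lowest MS library was well above the highest LW library. These values rested on 254, 141.5 and 65.5 reads in MS and on 19, 20 and 32 reads in LW. The means were 141 ± 37.3 in MS and 23.1 ± 6.51 in LW (SD, n = 3 each), a ratio of 6.11, with a log2 fold change of 2.57 (SE 0.37, limma adjusted p = 9.99e-05). By mean it was the third of the 6 passengers in MS and the last in LW.

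The passenger of mir-30c-2 went the other way. The miR-30c-2-3p row had 137, 80.8 and 137 normalized reads in MS, against 288, 376 and 432 in LW. The breeds were separated by a gap wider than the spread of MS. The means were 118 ± 32.6 in MS and 365 ± 72.5 in LW (SD, n = 3 each), and the log2 fold change was -1.64 (SE 0.33, limma adjusted p = 0.0011). Both rows were called under all 18 alternatives that could be run on them, with log2 fold changes of 2.18 to 2.99 for miR-30d-3p and -1.80 to -1.20 for miR-30c-2-3p, and with limma, edgeR and DESeq2 alike. The GC correction left both calls in place.

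The passengers of mir-30e and mir-30a were the most abundant 3p rows. The miR-30e-3p row had 1325, 792 and 1066 normalized reads in MS, against 1001, 1013 and 1084 in LW. The miR-30a-3p row had 1230.1, 931 and 696 normalized reads in MS, against 849, 880.1 and 1036 in LW. In both rows the MS libraries enclosed the LW libraries, and the log2 fold change of each was 0.01 (limma adjusted p = 0.977 for miR-30e-3p and 0.967 for miR-30a-3p). The passenger of mir-30e was thus not called although its guide was.

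By mean the scarcest rows in MS were miR-30c-1-3p and miR-30b-3p. The neighbour of mir-30e in the genome gave miR-30c-1-3p at 61.2, 40.4 and 28.8 normalized reads in MS, against 26.3, 39.9 and 59.4 in LW. The breeds overlapped, with a log2 fold change of 0.06 (SE 0.43, limma adjusted p = 0.909). The miR-30b-3p row had 23.0, 15.6 and 23.7 normalized reads in MS, against 27.6, 39.9 and 45.7 in LW. Its breeds did not overlap, but the row was not called, with a log2 fold change of -0.82 (SE 0.39, limma adjusted p = 0.0873). It rested on 32, 17 and 14 reads in MS and on 22, 49 and 50 reads in LW. On the recovered reads edgeR called it lower in MS at a log2 fold change of -0.92 (adjusted p = 0.045).

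The arms of each hairpin were then compared within a library, which does not depend on how the libraries were scaled. The measure was log2(3p + 1) minus log2(5p + 1), fitted with limma over all 192 hairpins whose arms both passed the filter. The hairpins mir-30c-1 and mir-30c-2 share their 5p row. Their values are therefore not independent, and the 5p reads of each are not known apart. Of the 6 miR-30 hairpins 4 were called, 1 with more 3p per 5p in MS (mir-30d) and 3 with less (mir-30b, mir-30c-2 and mir-30e). Among all hairpins tested 64.6% were called, 35.4% higher and 29.2% lower in MS. The breeds did not overlap in 4 of the 6 hairpins, against 69.3% of all. The median change was -0.46 over the 6 hairpins and 0.07 over all.

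**Figure D3:**
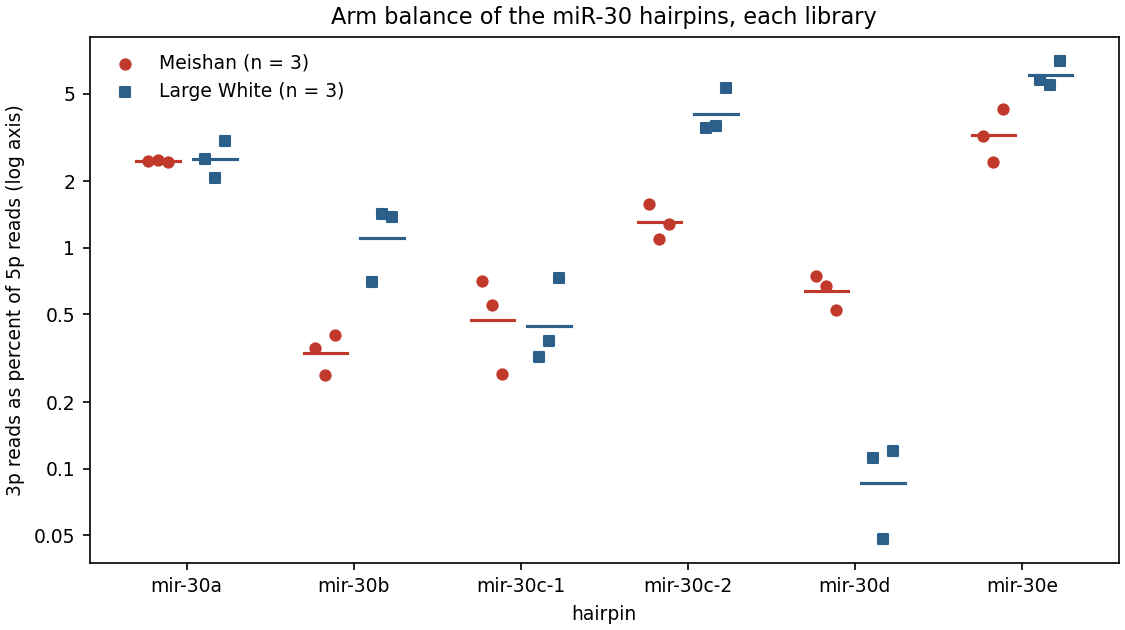
Normalized reads of the 3p arm as a percent of the 5p arm (log axis) for the 6 miR-30 hairpins; points are libraries and bars are geometric means, n = 3 per breed. The mir-30d hairpin sits higher in MS, mir-30b, mir-30c-2 and mir-30e sit lower in MS, and mir-30a and mir-30c-1 overlap.

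The mir-30d hairpin had the largest change. Its 3p reads were 0.743%, 0.672% and 0.521% of its 5p reads in MS, against 0.112%, 0.048% and 0.120% in LW. Even the highest LW library stayed well below the lowest MS library. The log2 change of the balance was 2.83 (SE 0.42, limma adjusted p = 0.000522), and it was called under all 13 alternatives, at 2.29 to 3.06. For mir-30c-2 the 3p reads were 1.58%, 1.10% and 1.28% of the shared 5p row in MS, against 3.51%, 3.56% and 5.29% in LW. The MS balance was lower in every library, with a log2 change of -1.62 (SE 0.31, limma adjusted p = 0.00198). The other hairpin that uses the same 5p row, mir-30c-1, had 0.704%, 0.550% and 0.269% in MS and 0.321%, 0.377% and 0.727% in LW, and it was not called (log2 change 0.08, limma adjusted p = 0.892).

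Both hairpins are shown because their passengers carry the clearest breed differences of the family, in opposite directions. They are given 5′ to 3′, with the 5p arm and then the 3p arm in capitals, as the authors' hairpin tables list them.
mir-30d: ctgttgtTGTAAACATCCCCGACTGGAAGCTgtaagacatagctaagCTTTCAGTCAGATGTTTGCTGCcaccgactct
mir-30c-2: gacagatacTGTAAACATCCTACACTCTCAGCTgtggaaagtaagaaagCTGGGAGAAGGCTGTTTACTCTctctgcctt
All rows of the family matched their hairpins without a difference.

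The mir-30b hairpin had 3p reads at 0.351%, 0.267% and 0.402% of its 5p reads in MS, against 0.703%, 1.42% and 1.38% in LW. The breeds did not overlap, and the log2 change was -1.70 (SE 0.37, limma adjusted p = 0.00396). The mir-30e hairpin had the 3p arm at 3.22%, 2.46% and 4.25% in MS, against 5.79%, 5.48% and 7.05% in LW. The breeds did not overlap, with a log2 change of -0.91 (SE 0.31, limma adjusted p = 0.0318), and the call ended without MS library 1 (limma adjusted p = 0.0745), MS library 2 (0.128), LW library 1 (0.0538) or LW library 3 (0.102), and with no filter (0.0795). For mir-30a the 3p arm was 2.48%, 2.51% and 2.45% in MS and 2.52%, 2.06% and 3.05% in LW, with the breeds overlapping and a log2 change of -0.02 (limma adjusted p = 0.952).

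The GC correction ended 3 of these calls. With it the log2 change was -0.34 for mir-30b, -0.41 for mir-30c-2 and -0.24 for mir-30e, and none of them was called. The change of mir-30c-1 was then 1.51 (limma adjusted p = 0.0145) and was called. The mir-30d balance was called with and without it.

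Rows with the same seed can bind the same sites, so each row was also expressed as a share of its seed group, again independent of the scaling. The groups were formed over all rows that passed the filter, which gave 179 rows with a partner, and the log2 share was fitted with limma. Of the 10 miR-30 rows in this fit 4 were called, 3 with a higher and 1 with a lower share in MS, against 53.6% of all rows tested, 27.4% higher and 26.3% lower. The shares of the breeds did not overlap in 7 of the 10 rows, against 65.9% of all. The median change was -0.09 over the 10 rows and -0.02 over all. Shares within a group sum to 1, so the rows are not independent.

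**Figure D4:**
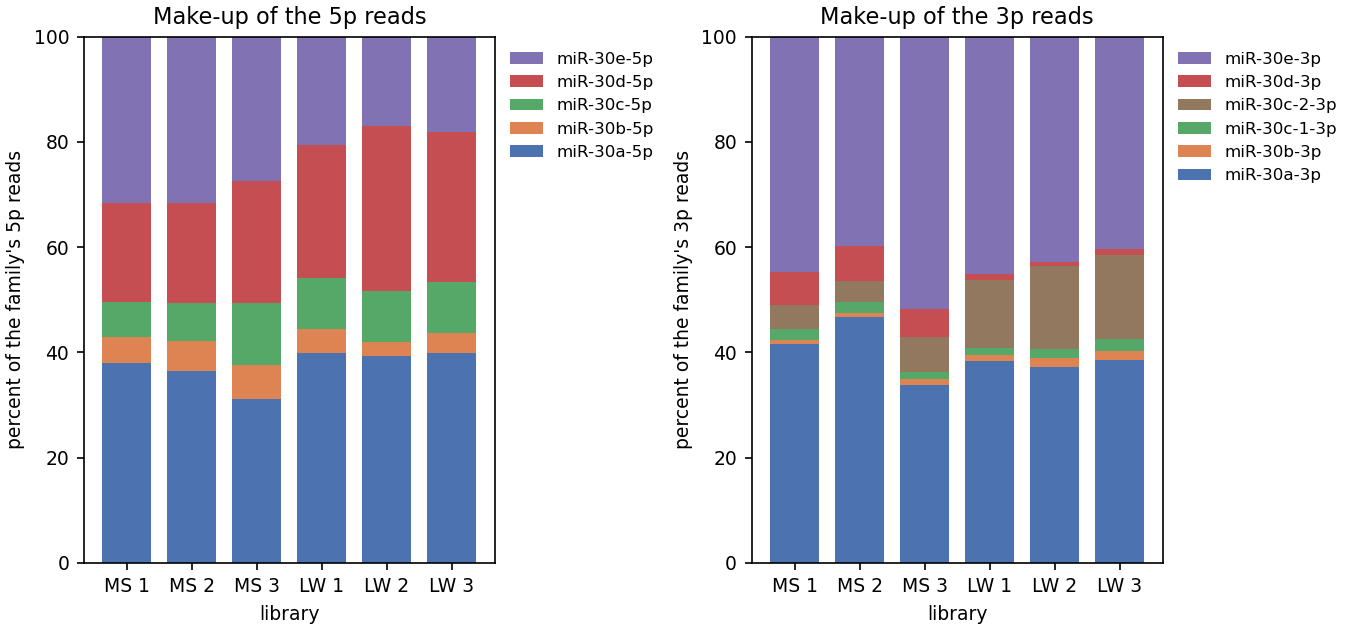
Make-up of the 5p reads (left) and of the 3p reads (right) of the family in each library, in percent of the arm's normalized reads; each colour is a row. In the 5p reads miR-30e-5p takes 27.4% to 31.65% in MS and 17.1% to 20.5% in LW. In the 3p reads miR-30d-3p takes 5.37% to 6.53% in MS and 0.69% to 1.09% in LW, and miR-30c-2-3p takes 4.06% to 6.64% in MS and 13.0% to 16.1% in LW.

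Among the guides miR-30e-5p took 31.5%, 31.65% and 27.4% of the family's 5p reads in MS, against 20.5%, 17.1% and 18.1% in LW. The breeds were separated by more than the spread of either. In the seed group its log2 share changed by 0.70 (SE 0.15, limma adjusted p = 0.012). This call ended without MS library 1 (limma adjusted p = 0.0551) or MS library 2 (0.0511), and after the GC correction the change was 0.14 and was not called. The mir-30d guide took 18.9%, 19.0% and 23.3% in MS, against 25.3%, 31.3% and 28.6% in LW. That difference in share was not called (log2 change -0.49, limma adjusted p = 0.0561), nor was that of miR-30b-5p (0.66, limma adjusted p = 0.0736).

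As a ratio within each library, miR-30e-5p was 0.829, 0.870 and 0.881 of miR-30a-5p in MS, against 0.514, 0.433 and 0.453 in LW. The sequences of this pair differ by C13T alone. Their passengers, which differ by G18A alone, had ratios of 1.08, 0.851 and 1.53 in MS and 1.18, 1.15 and 1.05 in LW, where the breeds overlapped. These ratios were not tested. After the GC correction the log2 fold change of miR-30e-5p was 0.12, so that the size of the guide difference depends on that correction.

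The neighbours mir-30b and mir-30d on chromosome 4 differed between the arms. The miR-30b-5p reads were 0.266, 0.303 and 0.277 of the miR-30d-5p reads in MS, against 0.184, 0.0826 and 0.136 in LW. On the passenger side, miR-30b-3p was 0.126, 0.120 and 0.214 of miR-30d-3p in MS, against 1.16, 2.45 and 1.56 in LW. In every MS library miR-30d-3p was the more abundant passenger of the pair, and in every LW library miR-30b-3p was. In LW library 1 that order rested on only 22 reads of miR-30b-3p against 19 of miR-30d-3p. Neither ratio was tested. After the GC correction the log2 fold changes of the guides were -0.07 for miR-30b-5p and 0.15 for miR-30d-5p, so that the direction of the guide ratio depends on that correction.

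Among the passengers with the seed TTTCAGT, miR-30d-3p had a higher share in MS, with a log2 change of 2.46 (SE 0.20, limma adjusted p = 0.000903). In the other group miR-30c-1-3p and miR-30c-2-3p are alone together, so that their shares are 1 comparison. There miR-30c-1-3p had a higher share in MS (log2 change 1.39, SE 0.30, limma adjusted p = 0.012), while its own level was not called. The ratio of miR-30c-2-3p to miR-30c-1-3p was 2.25, 2.00 and 4.76 in MS, against 11.0, 9.43 and 7.28 in LW. The breeds did not overlap, and MS library 3 was nearest to LW. Both share calls held under all 13 alternatives, whereas the lower share of miR-30c-2-3p (log2 change -0.31, limma adjusted p = 0.0251) ended without MS library 1 (0.0785), MS library 2 (0.0651), LW library 1 (0.0783), LW library 2 (0.0707) or LW library 3 (0.06).

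Summed over the guides, the family held 130505, 101809 and 91360 normalized reads in MS, against 84410, 108394 and 85166 in LW. The ranges overlapped, at 107892 ± 20269 in MS and 92657 ± 13634 in LW (SD, n = 3 each). As a share of all normalized reads the guides took 5.53%, 5.11% and 5.20% in MS, against 3.32%, 3.90% and 2.92% in LW. Here the breeds did not overlap, and the library sums that divide these values were lower in MS, at 2037615 ± 304575, against 2745532 ± 188965 in LW (SD, n = 3 each). The summed passengers held 2960, 1991 and 2062 normalized reads in MS, against 2216, 2365 and 2686 in LW. They amounted to 2.27%, 1.96% and 2.26% of the guides in MS and 2.63%, 2.18% and 3.15% in LW, again overlapping. No test was made of these sums, and an exact permutation test of 3 against 3 libraries could not go below p = 0.10.

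Another 2 rows of the table carried the miR-30 guide seed. They are shown with the seed in capitals, because they could share the guides' sites.
PN-48-5p: tGTAAACAattcctaggtaatgt
PN-5-5p: tGTAAACAtccgactggaagct
The authors' tables match PN-48 to mir-384, whose 5p arm is known in mouse to share the miR-30 seed and has been studied in mouse brain, and they match PN-5 to mouse mir-30f. The listed PN-48-5p sequence differs by C18T from the hairpin in those tables (chrX:69515826-69515913, plus strand), and it shares only the first bases with the miR-30 guides. PN-5-5p had 1 read, in MS library 3, and is not described further.

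PN-48-5p had 755, 634 and 450.1 normalized reads in MS, against 16.3, 30.9 and 5.48 in LW. All MS libraries were far above all LW libraries. The means were 613 ± 154 in MS and 17.6 ± 12.8 in LW (SD, n = 3 each), a ratio of 34.9, with a log2 fold change of 5.30 (SE 0.51, limma adjusted p = 5.62e-06). Its GC content of 30.4% was the lowest of the rows with this seed, and it was still called after the GC correction, at the lowest log2 fold change of the 18 alternatives, 2.93. The other arm, PN-48-3p, had 232, 239.6 and 118 normalized reads in MS, against 3.76, 17.9 and 10.1 in LW, with a log2 fold change of 4.24 (SE 0.51, limma adjusted p = 2.9e-05). After the GC correction the log2 fold change of PN-48-3p was 1.49 (limma adjusted p = 0.0248), again the lowest of 18 alternatives. Both arms of this hairpin were called higher in MS with and without the correction. Even in MS, PN-48-5p stayed below every one of the miR-30 guides.

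Marker lists of other tissues are given beside the 34.1% of all tested rows that were higher and the 28.1% that were lower in MS. The neural list summed to 1847 to 4523 normalized reads in MS and 443 to 1429 in LW, with 2 of its 5 tested rows higher and 0 lower in MS, and miR-9-5p was its most abundant row. The muscle list had 9 of 9 tested rows higher in MS. The blood list summed to 7061 to 12083 in MS and 3596 to 4641 in LW, with 5 of 6 tested rows higher. The endothelial list, the 2 arms of miR-126, summed to 10500 to 13989 in MS and 5134 to 8860 in LW. Of its 2 rows miR-126-5p was called higher in MS. The other, miR-126-3p, was not called, at 4161, 3899 and 3907 in MS against 6726, 4166 and 5537 in LW. The cartilage list was lower in MS in 2 of 4 tested rows, at 7681 to 14936 in MS and 63660 to 81035 in LW. Its sum was mostly miR-140-3p, at 10059, 4202 and 6069 in MS against 69625, 53944 and 70843 in LW. The partner miR-140-5p overlapped, at 517, 339 and 377 in MS against 497, 470 and 360 in LW. The miR-455 arms differed, with miR-455-3p lower in every MS library and miR-455-5p higher in every MS library but not called. The smooth muscle list had 1 row higher and 3 lower of 4, at 23294 to 45565 in MS and 14065 to 22527 in LW. Its sum was mostly the 1 higher row, miR-143-3p, at 44941, 31407 and 22722 in MS against 20879, 11748 and 19704 in LW. The list for epithelium and kidney had 3 rows higher and 1 lower of 5, at 833 to 1617 in MS and 478 to 649 in LW. The liver list had its 1 tested row lower, at 47.5 to 89.1 in MS and 183 to 2864 in LW, with the top value from miR-122-5p in LW library 3. No row of these lists was at 0 in all libraries of a breed, while miR-223 of the blood list and 5 of the 10 names for epithelium and kidney matched no row by name. The part of tissue make-up in the miR-30 and PN-48 differences was not tested.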

How the data were processed

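Small RNA libraries of longissimus dorsi muscle from 3 MS and 3 LW females were grouped by breed as labelled. RNA was isolated with mirVana reagents, made into TruSeq small RNA libraries and processed by the authors in ACGT101-miR (no version in the sources used here). Reads of 18 to 26 nt were kept, matches to other RNA classes and repeats were removed, and the rest was mapped by BLAST to miRBase 21.0 and Sscrofa10.2. The deposited unit is a signal called normalized reads here. For each miRNA the authors took the reads of its commonest sequence and scaled them to the library's total of mappable reads, to a target that no source used here states. Identical mature sequences share 1 row.

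Of 1143 rows, 548 whose mean reached 10 normalized reads in MS or in LW were tested with limma 3.58.1 in R 4.3.3 (log2, pseudocount 1, eBayes with trend, Benjamini-Hochberg adjustment over the whole table). The unit is not raw counts, so edgeR 4.0.16 and DESeq2 1.42.0 on whole reads recovered were alternatives only. Of values up to 20 reads, 93.3% to 95.7% were whole within 0.1 read. One read was worth 0.72 to 1.69 normalized reads, which bounds the precision of low values. The scarcest library held 1038988 reads. Arm balance and seed-group share were fitted in the same way. The main fits of rows, arm balances and shares were tested on simulated reads. Read recovery, sums, ratios, hairpin positions and marker lists had no such test.

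Alternatives were other pseudocounts, filters and scalings, no trend, a replicate block, a loess GC correction (span 0.75), each library left out, and an unadjusted Student test above 1000 normalized reads. Every miR-30 row and every other row with the guide seed was named, other miRNAs only from the marker lists. The members and lists were chosen with earlier results of these data known. No genome was used here. Descriptive steps used Python 3.11.15 and pandas 2.3.3. Another 4 lines of the table and RT-qPCR were not used here. Coordinates are those of the authors' hairpin tables.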

Additional observations from a re-analysis of the deposited data

How the results depend on the processing

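The values of miR-30b-3p rested on 14 to 50 reads. With 3 animals per breed the standard error of the log2 fold change was 0.39 for that row and 0.43 for miR-30c-1-3p. Differences of that size were not detectable with so few animals and reads. The larger difference of miR-30b-3p given above was not called either. Replicate numbers did not pair the libraries, since the correlations of same-numbered deviations were 0.005, -0.211 and 0.097. With the replicate block 4 rows and 4 arm balances were still called, and the share of miR-30c-2-3p was not (limma adjusted p = 0.0622), which left 0 lower shares. The causes of the changes below were not tested, except that fewer rows enter a stricter filter.

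The count of called rows (4, of which 3 higher and 1 lower in MS) was 2 with 0 lower under the filter above 1000 normalized reads, where 6 rows were tested, and likewise 2 with 0 lower under the unadjusted Student test. It was 1 higher and 2 lower under the GC correction, with and without the replicate block, and 2 lower with edgeR. The count of arm balances (4, 1 higher and 3 lower) was 1 with 0 higher and 1 lower under that filter, where 1 hairpin was tested, and 2 with 2 higher and 0 lower under the GC correction, with and without the replicate block. The count of shares (4, 3 higher and 1 lower) ranged over 2 to 6 with 1 library left out, and its lower part over 0 to 3. The lower part was 2 with a pseudocount of 10, without trend and under the GC correction. Scaling to equal sums gave a log2 difference of 0.65 for the guide sum and 0.37 for the passenger sum, against 0.21 and -0.07 with the deposited scaling.

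The sign turned in the following cases. Under the GC correction, with and without the replicate block, the log2 fold change was -0.039 for miR-30a-5p, -0.069 for miR-30b-5p, 0.15 for miR-30d-5p and -0.12 for miR-30e-3p, the arm balance of mir-30a changed by 0.47, and the shares changed by 0.21 for miR-30a-3p, -0.047 for miR-30b-5p and 0.17 for miR-30d-5p. DESeq2 gave -0.040 for miR-30a-3p, -0.032 for miR-30a-5p, -0.019 for miR-30c-1-3p and -0.052 for miR-30e-3p, and edgeR gave -0.017 for miR-30e-3p. TMM scaling gave 0.029 for miR-30c-5p. Median-of-ratios scaling gave -0.030 for miR-30a-3p, -0.011 for miR-30a-5p and -0.036 for miR-30e-3p. Equal sums gave 0.42 for miR-30c-5p and 0.17 for miR-30d-5p. With 1 library left out, the log2 fold change ranged from -0.17 to 0.23 for miR-30a-5p, from -0.16 to 0.11 for miR-30c-5p, from -0.17 to 0.20 for miR-30e-3p, from -0.19 to 0.22 for miR-30a-3p and from -0.23 to 0.35 for miR-30c-1-3p. The arm balance then ranged from -0.16 to 0.12 for mir-30a and from -0.21 to 0.48 for mir-30c-1, and the share from -0.20 to 0.0053 for miR-30e-3p and from -0.19 to 0.030 for miR-30a-3p.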
